A study of Mus musculus with 25 samples.

Results

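Resting regulatory T cells (Treg) labelled as lacking c-Rel were set against resting wild-type (WT) Treg across all genes. The members were chosen by their labels: 2 libraries of unstimulated c-RelKO Treg and 4 of unstimulated WT Treg, which is 6 of the 25 RNA-seq libraries of the series. The series profiled Treg and conventional T cells (Tconv) of C57BL/6 mice, taken from spleen and lymph node, with and without 1 or both of the NF-kB subunits p65 and c-Rel. Beside its 6 members, the comparison draws on 3 libraries of resting p65KO Treg and 2 of resting WT Tconv. It also draws on stimulated cells, kept for 3 h with CD3 and CD28 antibodies (2 µg/ml) and IL-2. Of these there was 1 library of c-RelKO Treg and 2 of WT Treg. Libraries of Treg lacking both subunits, of stimulated Tconv and of stimulated p65KO Treg also entered the estimate of the spread between libraries. Whether c-Rel was missing from all cells or from Treg alone, which Cre (if any) removed it, how Treg were sorted, how old the animals were and how many were used are points not given in these sources.

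NF-kB is a family of dimeric transcription factors built from p65 (gene Rela), c-Rel (Rel), RelB, p50 (from Nfkb1) and p52 (from Nfkb2). Inhibitors of the IkB family hold the dimers in the cytoplasm, and antigen receptor, CD28 or TNF receptor signals release them through the IKK kinases. In Treg, which depend on the transcription factor Foxp3, c-Rel is known for its part in thymic development and in the switching on of Foxp3, and for keeping activated Treg in their suppressive state.

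Levels are in FPKM, the fragments of a gene scaled to transcript length and to the mapped total, and are given in the order of the replicate numbers: c-RelKO Treg replicates 1 and 2, then WT Treg replicates 1 to 4. Differences are c-RelKO minus WT on the log2(FPKM + 1) scale, ± SE, which understates the change of genes with low FPKM. A gene is called where limma gave a Benjamini-Hochberg adjusted p under 0.05 over all 11535 genes tested. The implied depth was 22 and 36.1 M fragments (M, 1e6) in the c-RelKO libraries and 18.7, 18.3, 19.2 and 41.1 M in the WT libraries. In the labels, the numbers of the libraries used fall into 4 stretches, called runs here, which the labels do not describe as batches. c-RelKO replicate 1 shared a run with WT replicate 3, and c-RelKO replicate 2 with WT replicate 4, and these are called the within-run pairs. Labels do not say that replicates were separate animals, so p-values measure a spread between libraries, part of which may be technical. In the main fit this spread was estimated over 21 libraries in 10 groups, not from the c-RelKO and WT Treg libraries alone. In Xist, the transcript of the inactive X chromosome of females, c-RelKO libraries had 19.8 and 7.18 FPKM and WT libraries 131, 72.1, 59.3 and 0.00751 FPKM. WT replicate 4 thus held next to none of it, unlike WT replicates 1 to 3.

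Rel itself checked the labels. It lies at chr11:23641729-23670970 (mm9) and stood at 2.09 and 1.76 FPKM in c-RelKO Treg, against 27.5, 199.5, 271 and 252 FPKM in WT Treg. Both c-RelKO libraries were below every WT library, with a difference of -5.59 ± 0.77 (adjusted p = 0.000545). The 4 WT libraries were not alike: replicate 1 held the least Rel, and its early response genes were low too, as in Dusp4, a MAP kinase phosphatase induced by T cell receptor signals, at 27.9, 434, 398 and 414 FPKM against 369 and 437 FPKM in c-RelKO Treg. Rela stood at 133 and 137 FPKM in c-RelKO and 64.9, 99.1, 129.7 and 124 FPKM in WT Treg (0.42 ± 0.23, adjusted p = 0.269). Both c-RelKO libraries thus lay just above the WT range, but the difference did not pass the test.

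Treg markers were present in both c-RelKO libraries. Foxp3 was at 136 and 254 FPKM in c-RelKO and 129, 210.5, 344 and 351 FPKM in WT Treg, against 0.542 and 0.927 FPKM in resting WT Tconv. Il2ra, which encodes the CD25 chain of the IL-2 receptor, was at 244 and 333 FPKM in c-RelKO and 177, 197, 322 and 491 FPKM in WT Treg. Ctla4, a checkpoint receptor through which Treg restrain antigen-presenting cells, was at 779 and 791 FPKM in c-RelKO and 229, 1235, 946 and 652 FPKM in WT Treg. None of these differences passed the test (adjusted p = 0.635, 0.946 and 0.812), and the T cell genes Cd3e and Cd4 lay inside the WT range. The Treg marker Ikzf2, described further below, was present too, at 45.5 and 54.2 FPKM in c-RelKO Treg, but was called lower (adjusted p = 0.000527).

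Transcripts of other cells set c-RelKO replicate 2 apart. The summed level of 8 neutrophil markers was 33.5 and 1815 FPKM in c-RelKO replicates 1 and 2 and 11.1, 10.7, 3.35 and 16.4 FPKM in WT replicates 1 to 4. For 11 erythroid markers, among them globins whose near-identical copies may share reads, the sums were 9.62 and 20782 FPKM in c-RelKO and 192, 637, 7.15 and 8.84 FPKM in WT Treg. For 12 B cell markers they were 17.1 and 289.5 FPKM in c-RelKO and 85.7, 15.1, 6.63 and 7.06 FPKM in WT Treg. Replicate 2 of c-RelKO was thus the highest library for each of these lists. The next highest was c-RelKO replicate 1 for neutrophils, above all WT libraries, and WT replicate 1 for B cells. Between the groups no member of the neutrophil and B cell lists passed the test, and of the erythroid list 1 did, the carbonic anhydrase Car2. MHC class II genes, by which B cells and myeloid cells present antigen, summed to 392 and 2163 FPKM in c-RelKO and 386, 141, 118 and 137 FPKM in WT Treg. Of 7 members 4 were called higher (2 in the set described next), among them Cd74, the invariant chain, at 262 and 1140.2 FPKM against 190.4, 90.0, 92.5 and 109.5 FPKM (2.24 ± 0.45, adjusted p = 0.00596). The stimulated c-RelKO library summed to 1.14 FPKM of neutrophil, 7.08 FPKM of erythroid and 4.68 FPKM of B cell markers, against 2.53 and 17.7, 5.62 and 6.95 and 5.46 and 6.05 FPKM in the stimulated WT libraries. MHC class II genes summed to 333 FPKM in the stimulated c-RelKO library, against 118 and 134 FPKM in the stimulated WT libraries. Because of these lists, results are also given without WT replicate 1 and c-RelKO replicate 2, called here the reduced set. It leaves 1 c-RelKO library, which is then assumed to vary as the other groups do. A fit with the run as a block and size factors is called the blocked fit. It called 9 of 11 tested B cell, 4 of 8 neutrophil, 5 of 8 erythroid and 9 of 12 myeloid markers higher, beside 23.1% of all tested genes.

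**Figure D1:**
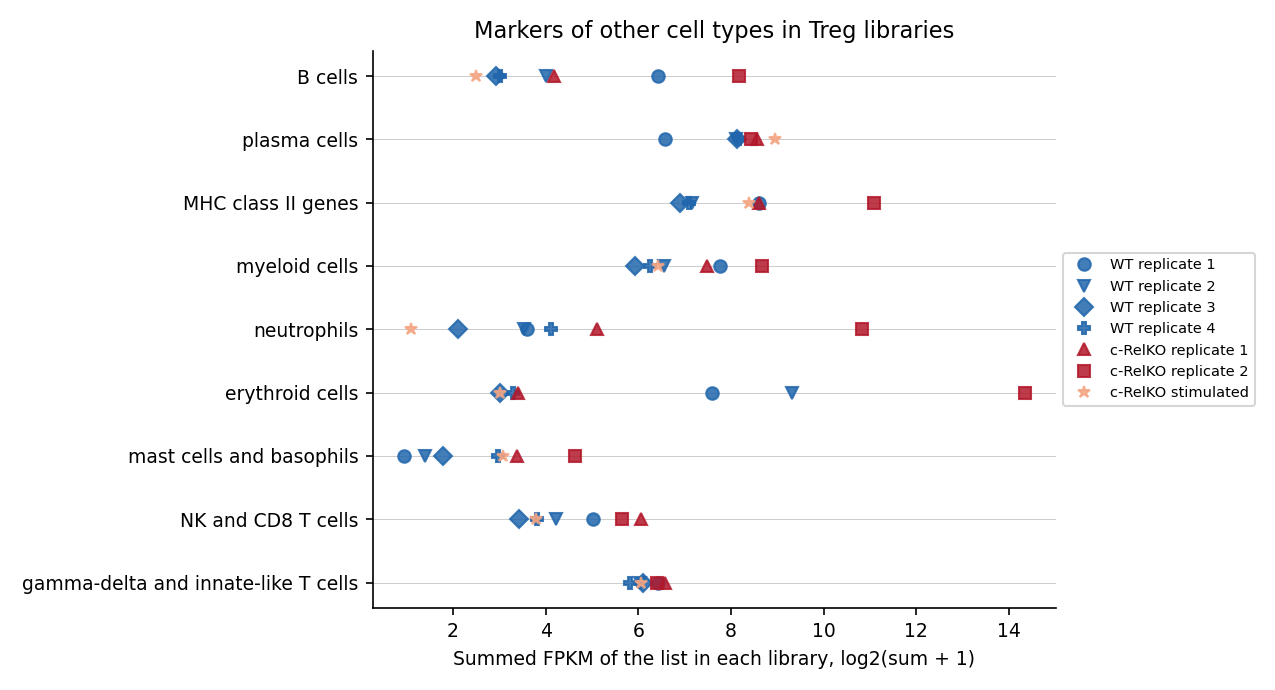
Summed FPKM of marker lists of other cell types, on a log2(sum + 1) axis, in each resting WT and c-RelKO Treg library and in the stimulated c-RelKO library. Replicate 2 of c-RelKO stands to the right for neutrophil, erythroid and B cell markers. Replicate 1 of c-RelKO lies within the WT range for erythroid and B cell markers and above it for neutrophil markers (33.5 FPKM, against at most 16.4 FPKM in WT).

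Loss of c-Rel went with more falls than rises. Of the 11535 genes tested, 1224 (10.6%) were called, 187 higher (1.62%) and 1037 lower (8.99%) in c-RelKO Treg. Median differences were 1.21 for the genes called higher and -0.89 for those called lower, and 116 and 388 of them reached a difference of at least 1 on the log2 scale. Every called gene had the same direction in both within-run pairs. Without c-RelKO replicate 1 the count was 450, and without replicate 2 it was 456. A fit on the 6 libraries alone, which estimates the spread from them only, called 71. Among all tested genes, 33.5% were higher and 44.1% lower in both pairs. The split depended on scaling. With size factors from genes expressed in every library, 395 genes were called higher (3.42%) and 701 lower (6.08%), and the share of calls that were higher went from 15.3% to 36.0%. This scaling moved the median difference of all genes from -0.13 to 0.03. In the reduced set 104 genes were called higher (0.902%) and 368 lower (3.19%), and 78 of the 187 and 364 of the 1037 were among them. In the blocked fit 2669 were called higher (23.1%) and 2185 lower (18.9%), including 187 of the 187 and 1008 of the 1037. These shares, and the 1.62% and 8.99% given above, are the background of every list count below. In bulk RNA, fewer cells of a type and less RNA per cell cannot be told apart.

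**Figure D2:**
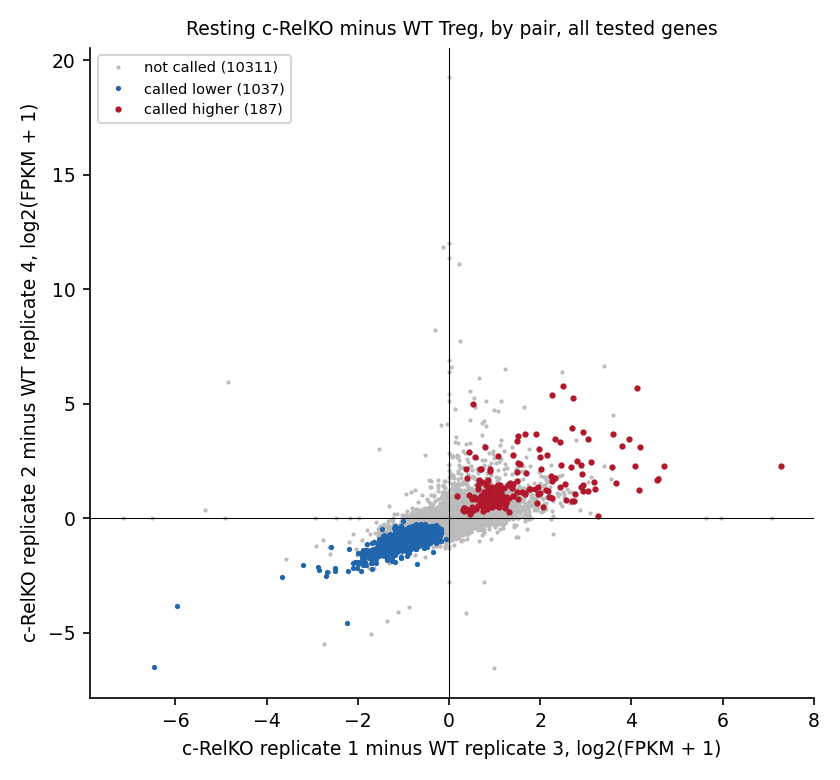
Difference of c-RelKO replicate 1 from WT replicate 3 (x axis) and of c-RelKO replicate 2 from WT replicate 4 (y axis), both in log2(FPKM + 1), for every tested gene. Genes called higher (187) lie to the upper right of both zero lines and genes called lower (1037) to the lower left.

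The largest rises were in cytokine, chemokine and natural killer receptor genes. Among them were Il22, Xcl1, Klrc1, Klrb1b, Il13, Il4, Gcnt2, Plac8, Cxcr6, Klrk1, Anxa1, Zbtb16, Il12rb2, Ly6c2 and Ifitm3, the 15 largest among called genes that had a mean of at least 5 FPKM in 1 group and did not overlap between the groups, leaving out predicted genes and small RNAs. Such separation was found in 8.46% of all tested genes in this direction and in 24.7% in the other. It was a condition for these rises and for the falls named next, so it is no added result where restated for them. By the same rule the largest falls, after Rel, were Lad1, Neat1, Malat1, Leng8, Fam193b, Sap25, Rgl2, Zfp692, Ppcdc, Adamts10, Slc15a2, Gabbr1, Ttll3 and Zfc3h1.

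**Figure D3:**
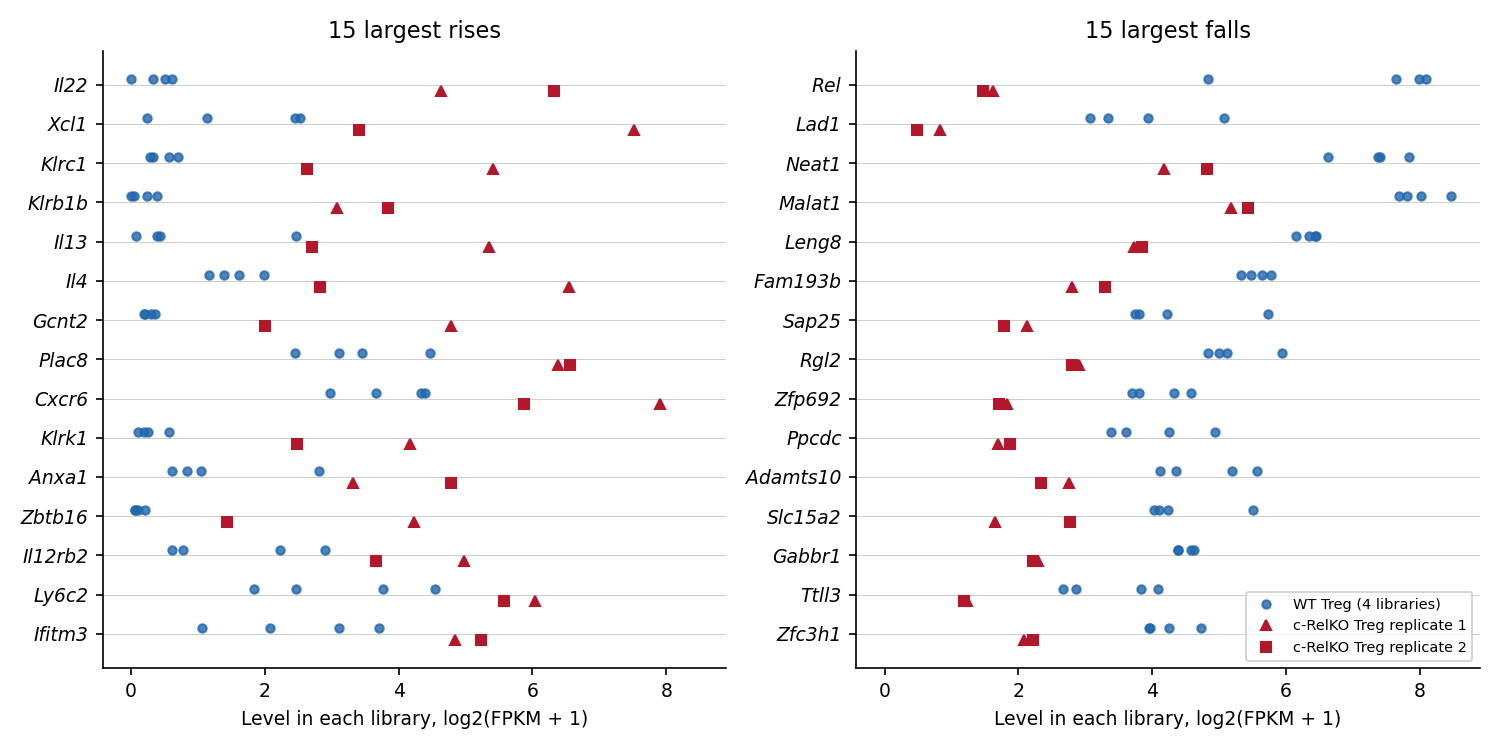
Level in each library, in log2(FPKM + 1), of the 15 largest rises (left) and 15 largest falls (right) in c-RelKO Treg (red, triangle for replicate 1 and square for replicate 2) against WT Treg (blue circles, 4 libraries). In no gene do the red and blue points overlap, which was a condition of the choice. Several rises, such as Xcl1 and Il4, are much larger in c-RelKO replicate 1 than in replicate 2.

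Type 17 and IL-22 genes held Il22, the first of these rises. It encodes a cytokine that acts on epithelial cells and is made by T helper 17, T helper 22 and innate lymphoid cells. It was at 23.8 and 79.4 FPKM in c-RelKO Treg, against 0, 0.258, 0.423 and 0.536 FPKM in WT Treg, where replicate 1 is listed at 0. Both c-RelKO libraries stood far above all WT libraries (5.12 ± 0.60, adjusted p = 0.000186; reduced set 4.15, adjusted p = 0.0098). Il22 lies at chr10:117642020-117647102 (mm9). Its near-identical neighbour Iltifb rose with it (2.42 ± 0.18, adjusted p = 8.16e-06), and how reads were shared between the pair is uncertain. In resting WT Tconv, Il22 was at 4.03 and 4.07 FPKM.

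Receptors upstream of IL-22 rose as well, at low levels. Il23r, a chain of the IL-23 receptor that sustains type 17 cells, was at 1.87 and 2.18 FPKM in c-RelKO and 0.417, 0.292, 0.324 and 0.147 FPKM in WT Treg (1.23 ± 0.15, adjusted p = 0.000235). Il1r1, the signalling receptor of IL-1, was at 1.87 and 2.05 FPKM in c-RelKO and 0.552, 0.306, 0.175 and 0.118 FPKM in WT Treg (1.21 ± 0.18, adjusted p = 0.000778). In both genes the 2 c-RelKO libraries lay close together and above all 4 WT libraries. Tmem176a and Tmem176b, neighbouring membrane protein genes known from type 17 cells and myeloid cells, were called higher with differences of 1.83 ± 0.51 and 1.81 ± 0.45 (adjusted p = 0.0342 and 0.0201). For Tmem176a the levels were 13.8 and 10.1 FPKM in c-RelKO and 10.3, 2.6, 1.11 and 0.962 FPKM in WT Treg, so that WT replicate 1 lay between the c-RelKO libraries. Summed myeloid markers were 178 and 405 FPKM in c-RelKO and 217, 93.6, 59.6 and 75.9 FPKM in WT Treg, again with WT replicate 1 between them, and their part in this result was not tested. Il21, a cytokine of T helper 17 and follicular helper cells, was at 4.18 and 0.933 FPKM in c-RelKO and 0.437, 0.058, 0.129 and 0.0168 FPKM in WT Treg (1.46 ± 0.38, adjusted p = 0.0253).

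With Il22, these 6 genes were the members called higher among 14 tested in the type 17 list, and none was called lower. The list's median difference was 1.04, against -0.13 for all tested genes. To be tested, a gene had to reach 1 FPKM in 2 or more libraries. A member could do so through the c-RelKO libraries alone, and Il23r and Il1r1 were below 1 FPKM in every WT Treg library. The count and the median are therefore a description, as for other lists with members at low levels. Il17a, the cytokine that gives the type its name, was at 1.64 and 0.564 FPKM in c-RelKO and 0.0521, 0.115, 0.219 and 0.0735 FPKM in WT Treg, a separation that did not pass the test (adjusted p = 0.425). In the reduced set the same 6 members were called higher, and in the blocked fit 7 members were.

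Type 2 cytokines rose mainly in c-RelKO replicate 1. Il4, which drives type 2 responses, was at 92 and 6.11 FPKM in c-RelKO and 2.08, 1.61, 2.95 and 1.23 FPKM in WT Treg (3.15 ± 0.93, adjusted p = 0.0441). Il13, its neighbour on the same chromosome, was at 39.9 and 5.53 FPKM in c-RelKO and 0.352, 0.0556, 4.5 and 0.308 FPKM in WT Treg (3.19 ± 0.89, adjusted p = 0.0344). For both genes each c-RelKO library lay above the WT range, replicate 2 by far less than replicate 1, and without c-RelKO replicate 1 the adjusted p was 0.532 for Il4 and 0.404 for Il13. Il5, the eosinophil growth factor of the same cluster, did not pass the test (2.26 ± 0.78, adjusted p = 0.0824), but did in the blocked fit (adjusted p = 0.0115). Gata3, the transcription factor of type 2 cells, was at 67.8 and 66 FPKM in c-RelKO and 47.4, 65.9, 83.3 and 95.4 FPKM in WT Treg (adjusted p = 0.922). Il4 and Il13 were thus the 2 of 13 tested members of the type 2 list that were called, and the list's median was 0.76, while the blocked fit called 4 higher. Mast cell and basophil markers summed to 9.45 and 23.8 FPKM in c-RelKO and 0.923, 1.65, 2.43 and 6.86 FPKM in WT Treg. Of the 8 markers 4 were tested, with a median of 1.53. These 4 were all higher in both within-run pairs, beside 33.5% of all tested genes. Mcpt4 and Fcer1a were at 0 in all 6 libraries, while Kit, the stem cell factor receptor, was called higher (1.58 ± 0.32, adjusted p = 0.00704). The part of mast cells and basophils in the type 2 result was not tested.

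Type 1 and cytotoxic genes held 7 rises and 1 fall among 21 tested, with a median of 1.51. Ifng, the type 1 cytokine interferon-gamma, was at 56.7 and 14.2 FPKM in c-RelKO and 5.62, 8.61, 5.66 and 1.75 FPKM in WT Treg (2.34 ± 0.62, adjusted p = 0.0276). Tbx21, the transcription factor T-bet that induces it, was at 14.1 and 8.73 FPKM in c-RelKO and 4.32, 7.57, 4.68 and 3.96 FPKM in WT Treg (1.02 ± 0.29, adjusted p = 0.0405). Il12rb2, a chain of the IL-12 receptor, was at 30.4 and 11.6 FPKM in c-RelKO and 0.713, 0.526, 3.7 and 6.48 FPKM in WT Treg (2.69 ± 0.74, adjusted p = 0.0333). In all 3 genes no c-RelKO library overlapped the WT libraries, and replicate 1 was the higher of the 2. The granule proteases Gzmb (1.55 ± 0.44, adjusted p = 0.038) and Gzmc (1.99 ± 0.41, adjusted p = 0.00684), close relatives whose reads may be shared, rose too. So did Eomes, a T-box factor of cytotoxic cells (1.05 ± 0.21, adjusted p = 0.00599). Xcl1, a chemokine that draws cross-presenting dendritic cells, was at 183 and 9.59 FPKM in c-RelKO and 4.46, 4.75, 0.181 and 1.2 FPKM in WT Treg (3.88 ± 0.98, adjusted p = 0.022). Both its c-RelKO values lay above the WT range, but they differed from each other more than replicate 2 differed from WT. The fall was in Il18r1, a chain of the IL-18 receptor (-0.83 ± 0.24, adjusted p = 0.0381). In the reduced set 5 members were called higher and none lower, Tbx21, Il12rb2 and Gzmb not among them, and in the blocked fit 13 were called higher and 1 lower. For Prf1 (perforin), Fasl (Fas ligand) and the granzyme Gzma the differences were 1.51, 2.07 and 1.9, and none passed the test (adjusted p = 0.112, 0.0782 and 0.0608), though all 3 did in the blocked fit (adjusted p = 0.00116, 0.00094 and 0.00286).

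Natural killer receptors of the Klr family rose with them. Klrb1b, an inhibitory receptor of the NKR-P1 group, was at 7.48 and 13.3 FPKM in c-RelKO and 0.175, 0, 0.0263 and 0.311 FPKM in WT Treg (3.29 ± 0.23, adjusted p = 3.83e-06). It had the smallest adjusted p of the 15 largest rises and was called in the reduced set too (2.94, adjusted p = 0.000124). Klrc1, which encodes NKG2A, was at 41.5 and 5.19 FPKM in c-RelKO and 0.475, 0.211, 0.628 and 0.257 FPKM in WT Treg (3.55 ± 0.65, adjusted p = 0.00366). Klrk1, which encodes the activating receptor NKG2D, was at 17 and 4.6 FPKM in c-RelKO and 0.475, 0.19, 0.0715 and 0.139 FPKM in WT Treg (3.05 ± 0.40, adjusted p = 0.000404). In each of the 3, both c-RelKO libraries were above all WT libraries, as the rule for the 15 largest rises required. Klrd1 (CD94, the partner of NKG2A) and Klrb1c (NK1.1) were also called higher, with differences of 1.99 and 2.3. Of 21 members of the family found in the files, 8 passed the filter on low values and 5 of these were called. Because a member could pass that filter through the c-RelKO libraries alone, the count is a description. Reads of neighbouring Klr genes may be shared.

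Markers of natural killer and CD8 T cells, a list that holds 3 of these 5 receptors and Eomes, summed to 66.1 and 48.8 FPKM in c-RelKO and 31.4, 17.7, 9.76 and 13.1 FPKM in WT Treg, with no overlap. Its 4 called members were those shared genes. All 9 tested members were higher in both within-run pairs, beside 33.5% of all tested genes. The blocked fit called 8 of the 9 higher, Cd8a and Ncr1 among them. Of its other members, Ncr1, which encodes the natural killer receptor NKp46, was at 0.407 and 1.52 FPKM in c-RelKO and 0.439, 0.354, 0 and 0 FPKM in WT Treg. Cd8a was at 0.178 and 3.16 FPKM in c-RelKO and 2.77, 0.423, 0.149 and 0.191 FPKM in WT Treg, with c-RelKO replicate 1 between WT replicates 3 and 4. Cd160 was at 10.3 and 1.12 FPKM in c-RelKO, against at most 4.51 FPKM in WT Treg. Zbtb16, the transcription factor PLZF of innate-like T cells, was at 17.7 and 1.7 FPKM in c-RelKO and 0.0714, 0.0452, 0.043 and 0.158 FPKM in WT Treg (2.72 ± 0.52, adjusted p = 0.00496). It was high in replicate 1 above all. Summed markers of gamma-delta and innate-like T cells, which include it, were 94.1 and 84.2 FPKM in c-RelKO and 85.3, 64.3, 67.3 and 55.6 FPKM in WT Treg, and these overlap. The part of such cells in the rises was not tested.

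Tissue homing receptors were among the rises. Cxcr6, the receptor of CXCL16 found on tissue-resident T cells, was at 239 and 57.7 FPKM in c-RelKO and 19.9, 6.84, 19.1 and 11.6 FPKM in WT Treg (3.06 ± 0.59, adjusted p = 0.00524). The groups did not overlap, and c-RelKO replicate 1 was the higher of the 2. Of 18 tested homing receptors 2 were called, both higher, and the median was 0.34. The blocked fit called 10 of the 18 higher. Gpr15, a receptor for homing to the colon, was at 3.61 and 4.38 FPKM in c-RelKO and 29.5, 11, 13.2 and 7.31 FPKM in WT Treg, below all WT libraries, and just missed the test (-1.53 ± 0.48, adjusted p = 0.0576). Among 30 genes known from effector Treg, 3 were called higher, the type 1 genes Tbx21 and Gzmb and Lgals3, which encodes galectin-3 (1.5 ± 0.40, adjusted p = 0.0278). None of the 30 was called in the reduced set, while the blocked fit called 14 higher and 1 lower. Il10, the suppressive cytokine of that list, was at 82.4 and 91 FPKM in c-RelKO and 5.3, 63, 44.1 and 27.1 FPKM in WT Treg, above the WT range in both libraries but short of the test (1.71 ± 0.70, adjusted p = 0.135), which it passed in the blocked fit (adjusted p = 0.0255).

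Several other rises were large in both c-RelKO libraries. Plac8, a small cysteine-rich protein of leukocytes, was at 82.5 and 93.2 FPKM in c-RelKO and 21.2, 9.92, 4.45 and 7.66 FPKM in WT Treg (3.1 ± 0.48, adjusted p = 0.00121). Ifitm3, an interferon-induced membrane protein with close copies in its cluster, was at 27.7 and 36.6 FPKM in c-RelKO and 12, 7.59, 1.08 and 3.21 FPKM in WT Treg (2.55 ± 0.63, adjusted p = 0.0193). Ly6c2, a surface marker of monocytes and of memory T cells with a near-identical neighbour, was at 65 and 46.4 FPKM in c-RelKO and 22.3, 12.6, 2.59 and 4.53 FPKM in WT Treg (2.65 ± 0.55, adjusted p = 0.00765). In these 3 genes WT replicate 1 was the highest WT library, as it was for the myeloid markers. Gcnt2, a glycosyltransferase that branches cell-surface sugars, was at 26.5 and 3.02 FPKM in c-RelKO and 0.158, 0.278, 0.141 and 0.229 FPKM in WT Treg (3.13 ± 0.54, adjusted p = 0.00252). Anxa1, the anti-inflammatory annexin A1, was at 9.0 and 26.7 FPKM in c-RelKO and 6.0, 1.07, 0.534 and 0.78 FPKM in WT Treg (2.73 ± 0.74, adjusted p = 0.0299). The first was higher in replicate 1 and the second in replicate 2, each above all WT libraries. In the reduced set 12 of the 15 largest rises were called, and Anxa1, Il12rb2 and Ifitm3 were not (adjusted p = 0.113, 0.0977 and 0.066). Pde3b, a phosphodiesterase that breaks down cyclic AMP and is repressed in Treg, was at 44.7 and 29.3 FPKM in c-RelKO and 4.13, 4.16, 8.08 and 8.02 FPKM in WT Treg (2.45 ± 0.28, adjusted p = 0.000161). Resting WT Tconv held 124 and 118 FPKM of it, so that c-RelKO Treg lay between WT Treg and Tconv.

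In the NF-kB family itself, Rel was the only one of 5 subunit genes called in this comparison. Relb was at 130.3 and 139 FPKM in c-RelKO and 39.1, 71.1, 98.8 and 116 FPKM in WT Treg (0.83 ± 0.35, adjusted p = 0.151), above the WT range in both libraries. Nfkb1 was at 307 and 422 FPKM in c-RelKO and 122, 168, 380.3 and 476 FPKM in WT Treg (0.54 ± 0.49, adjusted p = 0.522). Nfkb2 was at 211 and 219.7 FPKM in c-RelKO and 54.5, 143, 182 and 238 FPKM in WT Treg (0.66 ± 0.46, adjusted p = 0.385). For the last 2 the c-RelKO libraries lay within the WT range, and WT replicate 1 was the lowest of the 4 in each of the genes.

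Kinases of the pathway fell. Of 23 inhibitors and regulators tested, 4 were called lower and none higher, beside 8.99% and 1.62% of all tested genes. But the blocked fit called 5 lower and 9 higher, beside 18.9% and 23.1% of all tested genes. Ikbke, which encodes the IKK-related kinase IKK-epsilon, was at 24.3 and 19.8 FPKM in c-RelKO and 128, 85.4, 56 and 77.2 FPKM in WT Treg (-1.87 ± 0.35, adjusted p = 0.00414). Ikbkb, the kinase IKK-beta that releases p65 and c-Rel from IkB, was at 26.1 and 26.1 FPKM in c-RelKO and 71, 51, 42.4 and 42.7 FPKM in WT Treg (-0.93 ± 0.20, adjusted p = 0.0108). In both genes all c-RelKO values lay below all WT values. Chuk (IKK-alpha, -0.45 ± 0.12, adjusted p = 0.0251) and Tnip2, a partner of the inhibitor A20 (-1.01 ± 0.25, adjusted p = 0.022), were the others. With size factors neither of these was called (adjusted p = 0.254 and 0.0917). The feedback inhibitor Nfkbia, which encodes IkB-alpha, was at 713 and 639 FPKM in c-RelKO and 199, 610.2, 857 and 833 FPKM in WT Treg (adjusted p = 0.706). Tnip2 alone of the 23 was called, lower, in the reduced set, and Ikbke and Ikbkb were not (adjusted p = 0.0712 and 0.0786).

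Of 28 published target genes of NF-kB in lymphocytes, none was called lower, 2 were called higher (Il21, above, and Irf1), and the median was 0.31. The blocked fit differed, with 7 called higher and 4 lower, beside 23.1% and 18.9% of all tested genes. Irf1, a transcription factor induced by interferon-gamma and NF-kB, was at 283 and 271 FPKM in c-RelKO and 164, 179, 188 and 153 FPKM in WT Treg (0.70 ± 0.19, adjusted p = 0.0291), with all c-RelKO values above all WT values. It was not called in the reduced set (adjusted p = 0.163). Cd83, an activation antigen, was at 119 and 136 FPKM in c-RelKO and 64.4, 307, 194 and 276 FPKM in WT Treg (-0.50 ± 0.63, adjusted p = 0.654). Bcl2l1, which encodes the survival protein BCL-XL, was at 42.6 and 48.6 FPKM in c-RelKO and 27.5, 58.3, 72 and 152 FPKM in WT Treg (-0.50 ± 0.59, adjusted p = 0.627). In both of the latter WT replicate 1 was the lowest library of all and the 3 other WT libraries lay above c-RelKO. In the blocked fit both were called lower, Cd83 with a difference of -0.71 (adjusted p = 0.015) and Bcl2l1 with -1.08 (adjusted p = 0.00871).

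Promoters were searched for the kappa-B consensus, the 10-base site that NF-kB dimers bind, on both strands, counting overlapping matches. The windows were the 250 bases before the first start listed for each gene by RefSeq (GRCm38.p6, another build than the files' mm9). A match was present in 3.75% of all 27025 windows, in 4.41% of tested genes (408 of the 9242 with a window) and in 4.53% of genes called lower (38 of 839). Of the 187 genes called higher, 148 had a window, under 80% of them, so that the check is void for these. Rel, whose loss defines the knockout, Nfkb2, Irf1 and Tmem176a are shown because they are members described above whose window holds a match. They lie at chr11:23770970-23771219 (Rel, minus strand), chr19:46304487-46304736 (Nfkb2, plus strand), chr11:53769764-53770013 (Irf1, plus strand) and chr6:48841233-48841482 (Tmem176a, plus strand). Each is printed 5′ to 3′ with the matched bases in capitals.
Rel: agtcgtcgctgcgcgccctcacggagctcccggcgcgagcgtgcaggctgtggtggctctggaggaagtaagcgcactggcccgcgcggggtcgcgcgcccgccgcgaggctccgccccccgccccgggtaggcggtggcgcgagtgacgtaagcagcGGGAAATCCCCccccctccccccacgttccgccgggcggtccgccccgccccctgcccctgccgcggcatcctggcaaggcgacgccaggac
Nfkb2: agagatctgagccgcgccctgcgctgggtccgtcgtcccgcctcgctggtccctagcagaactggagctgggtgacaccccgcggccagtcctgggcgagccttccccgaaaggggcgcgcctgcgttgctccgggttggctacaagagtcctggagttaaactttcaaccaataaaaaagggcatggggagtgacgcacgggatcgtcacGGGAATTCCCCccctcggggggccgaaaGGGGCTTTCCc
Irf1: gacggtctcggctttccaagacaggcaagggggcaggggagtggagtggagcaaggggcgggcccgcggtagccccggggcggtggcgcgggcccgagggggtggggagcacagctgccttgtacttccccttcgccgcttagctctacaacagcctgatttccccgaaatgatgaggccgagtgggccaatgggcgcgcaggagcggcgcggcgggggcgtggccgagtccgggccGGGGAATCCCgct
Tmem176a: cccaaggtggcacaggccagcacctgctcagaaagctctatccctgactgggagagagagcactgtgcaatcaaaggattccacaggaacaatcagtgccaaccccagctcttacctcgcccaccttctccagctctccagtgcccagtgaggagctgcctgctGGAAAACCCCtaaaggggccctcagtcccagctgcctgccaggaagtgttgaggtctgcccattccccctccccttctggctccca
The first match began 92 bases before the start of Rel, 39 before Nfkb2, 13 before Irf1 and 86 before Tmem176a. Of these 4 genes Rel was called lower, Irf1 and Tmem176a higher, and Nfkb2 was not called. A match describes letters in a window and is not a measured site.

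Survival genes moved in both directions. Bcl2, which protects resting lymphocytes from apoptosis, was at 48 and 44.6 FPKM in c-RelKO and 76.4, 73, 84.2 and 80.7 FPKM in WT Treg (-0.75 ± 0.18, adjusted p = 0.0176). Bcl2l11, which encodes the death-promoting protein BIM, was at 61.9 and 66.6 FPKM in c-RelKO and 20.6, 32.5, 35.4 and 37.5 FPKM in WT Treg (1.04 ± 0.30, adjusted p = 0.0399). Neither gene overlapped between the groups, Bcl2 lower and Bcl2l11 higher in c-RelKO. With Bcl2l2, a relative of Bcl2 at 1.11 and 0.916 FPKM in c-RelKO and 4.54, 2.5, 2.77 and 2.75 FPKM in WT Treg (-1.02 ± 0.20, adjusted p = 0.00571), they were the 3 called of 17 BCL2 family genes. With size factors Bcl2 was not called (adjusted p = 0.0855). None of the 3 was called in the reduced set (adjusted p = 0.147, 0.262 and 0.0634 in the order given), while the blocked fit called 3 of the 17 higher and 5 lower. Among 16 TNF receptor genes, Tnfrsf25, the death receptor DR3 through which TL1A expands Treg, was the one called, at 26.6 and 20.2 FPKM in c-RelKO and 75.8, 37.4, 52.9 and 48.9 FPKM in WT Treg (-1.14 ± 0.27, adjusted p = 0.0174). Its c-RelKO libraries were below all WT libraries, but in the reduced set it was not called (adjusted p = 0.217). The blocked fit called 4 of the 16 higher and 2 lower. For this list and the BCL2 family, the blocked counts stand beside 23.1% higher and 18.9% lower of all tested genes. The Treg receptors Tnfrsf4 (OX40), Tnfrsf18 (GITR) and Tnfrsf9 (4-1BB), which activate NF-kB, had differences of 0.45 ± 0.57, 0.08 ± 0.43 and 0.35 ± 0.97 (adjusted p = 0.65, 0.933 and 0.855). Of these Tnfrsf9 was called in the blocked fit, with a difference of -0.97 (adjusted p = 0.00725).

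The core Treg program held 1 called gene, Ikzf2. It encodes Helios, an Ikaros family factor that stabilises Treg, and lies at chr1:69577784-69732534 (mm9). Its levels were 45.5 and 54.2 FPKM in c-RelKO and 122, 121, 112 and 119 FPKM in WT Treg, against 6.59 and 7.15 FPKM in resting WT Tconv. The 4 WT libraries lay close together and both c-RelKO libraries well below them (-1.24 ± 0.17, adjusted p = 0.000527), also in the reduced set (-1.35, adjusted p = 0.00772). Foxp3 differed by -0.36 ± 0.43, and by -1.33 and -0.46 in the within-run pairs. Of the 30 core genes tested, 20 were lower and 4 higher in both within-run pairs, beside 44.1% and 33.5% of all tested genes, while the list's median was 0.04. WT replicate 1, which is in neither pair, was the lowest of the 4 WT libraries for Foxp3. It was so too for Lrrc32, the carrier of latent TGF-beta, at 239.8 and 452 FPKM in c-RelKO and 87.8, 455, 589 and 713 FPKM in WT Treg. In the blocked fit 8 of the 30 were called lower and 4 higher, and Foxp3 was not called (adjusted p = 0.115). Ecm1, a secreted matrix protein, was among the larger within-run falls (-2.05 and -1.34). Ikzf4, which encodes the Helios relative Eos, differed by -1.09 and -0.91 in the within-run pairs. No gene was called among 18 naive and central T cell genes (median 0.01) or 22 proximal T cell receptor genes (median 0.15). The blocked fit called 6 of the former higher and 1 lower, and 11 of the latter higher.

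**Figure D4:**
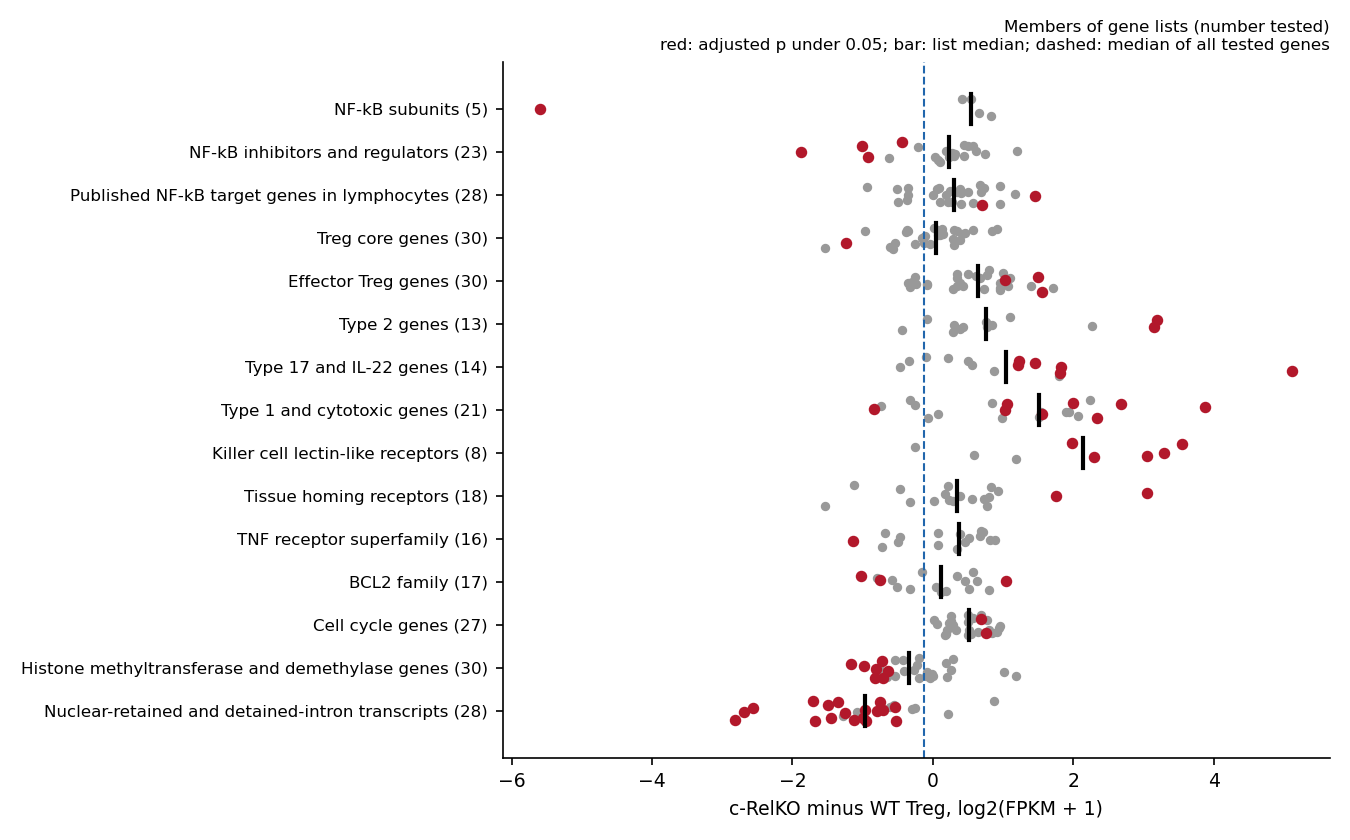
Difference between c-RelKO and WT Treg, in log2(FPKM + 1), of each tested member of 15 gene lists, with red points for called members, a bar at each list's median and a dashed line at the median of all tested genes (-0.13). Red points stand to the right in the type 17, type 1 and killer receptor lists and to the left in the nuclear-retained list, 18 of whose 28 members were called lower.

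Nuclear transcripts were among the largest falls. Neat1 and Malat1 are long noncoding RNAs that stay in the nucleus, Neat1 as the scaffold of paraspeckles and Malat1 in nuclear speckles. Neat1 was at 17.1 and 27.2 FPKM in c-RelKO and 98, 165, 228 and 168 FPKM in WT Treg (-2.81 ± 0.38, adjusted p = 0.000527). Malat1 was at 35.3 and 42 FPKM in c-RelKO and 223, 354, 259 and 205 FPKM in WT Treg (-2.69 ± 0.31, adjusted p = 0.000164). Both c-RelKO libraries lay far below the lowest WT library in each of these genes. Leng8, known for transcripts with detained introns, was at 12.3 and 13.3 FPKM in c-RelKO and 70.2, 86.7, 85.3 and 80.4 FPKM in WT Treg (-2.56 ± 0.18, adjusted p = 3.83e-06). Ccnl2, a cyclin of splicing factor kinases, was at 35.6 and 40.6 FPKM in c-RelKO and 114, 124, 132 and 128 FPKM in WT Treg (-1.68 ± 0.14, adjusted p = 2.01e-05). In both genes the libraries of each group lay close together and far from the other group.

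Of 28 tested transcripts known to be retained in the nucleus or to keep introns, 18 were called lower and none higher, with a median of -0.96. In 20 of the 28, both c-RelKO libraries were below all WT libraries, and 25 were lower in both within-run pairs. The shares over all tested genes were 24.7% and 44.1%, and 8.99% were called lower. Called members included the kinases Clk2 and Clk4, which phosphorylate splicing factors, the splicing proteins Luc7l3, Srrm2, Rbm39, Srsf11 and Son, and Ogt, which adds O-linked N-acetylglucosamine to proteins. Ogt was at 17.9 and 34.7 FPKM in c-RelKO and 112, 56.6, 85.3 and 89.6 FPKM in WT Treg (-1.7 ± 0.33, adjusted p = 0.00512). Members that were not called included Gabpb1 (0.87) and Clk1 (-0.56). With size factors 13 of the 28 were called lower, and likewise 13 in the reduced set, with no member higher in either. The blocked fit called 21 lower and 2 higher. The list was chosen with these falls in view, and its count is no independent evidence of them.

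Further large falls came from genes of varied function. Lad1, which encodes the filament protein ladinin, was at 0.783 and 0.406 FPKM in c-RelKO and 14.4, 9.08, 7.37 and 32.8 FPKM in WT Treg (-3.19 ± 0.63, adjusted p = 0.0057). In the reduced set it was not called (-2.99, adjusted p = 0.0835), nor were Sap25 and Adamts10 (adjusted p = 0.0765 and 0.0861), while the other 12 of the 15 largest falls were. Gabbr1, a subunit of the GABA-B receptor, was at 3.89 and 3.64 FPKM in c-RelKO and 23.6, 23, 19.9 and 19.8 FPKM in WT Treg (-2.24 ± 0.13, adjusted p = 1.08e-06). Fam193b was at 5.96 and 8.79 FPKM in c-RelKO and 53.6, 39, 43.6 and 48.7 FPKM in WT Treg (-2.51 ± 0.23, adjusted p = 3.17e-05). The WT libraries of Gabbr1 and Fam193b differed little among themselves, and the c-RelKO libraries lay far below. Rgl2, an exchange factor for Ral GTPases, was at 6.52 and 5.94 FPKM in c-RelKO and 60.3, 30.9, 27.5 and 33.7 FPKM in WT Treg (-2.37 ± 0.34, adjusted p = 0.000682). Dvl1, which relays Wnt signals, was at 6.57 and 8.78 FPKM in c-RelKO and 25.3, 29.2, 41.5 and 42.9 FPKM in WT Treg (-2.02 ± 0.27, adjusted p = 0.000397). Rgl2 and Dvl1 were again without overlap. The other named falls, Sap25, Zfp692, Ppcdc, Adamts10, Slc15a2, Ttll3 and Zfc3h1, had differences between -2.43 (Sap25) and -2.08 (Zfc3h1).

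Some histone methyltransferase and demethylase genes fell too. Of 30 tested, 7 were called lower and none higher, with a median of -0.33, and both c-RelKO libraries were below all WT libraries in 15. Over all tested genes 8.99% were called lower, 18.9% in the blocked fit, and 24.7% lay below all WT libraries. Mll2, a histone H3 lysine-4 methyltransferase, was at 14.3 and 16.2 FPKM in c-RelKO and 50.3, 30.6, 26.9 and 37 FPKM in WT Treg (-1.16 ± 0.24, adjusted p = 0.00788). Ash1l, which methylates lysine 36, was at 7.98 and 11.2 FPKM in c-RelKO and 17, 18.6, 15.9 and 17.8 FPKM in WT Treg (-0.80 ± 0.15, adjusted p = 0.00366). With size factors 3 of the 30 were called, in the reduced set Ash1l alone, and in the blocked fit 14 lower and 2 higher. Ezh2, the methyltransferase of lysine 27, was at 46.3 and 67.2 FPKM in c-RelKO and 32.3, 30.2, 94.1 and 129 FPKM in WT Treg (-0.08 ± 0.54, adjusted p = 0.948). In the blocked fit it was called lower (-0.72, adjusted p = 0.0149), and both within-run pairs were lower (-1.01 and -0.93).

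Cell cycle and ribosomal genes had positive median differences, with calls that depended on the fit. All 27 cell cycle genes tested had a positive difference, as had 4423 of all 11535 genes, with a median of 0.51, and 23 were higher in both within-run pairs. The 2 called members were Rrm1, a ribonucleotide reductase subunit (0.76 ± 0.17, adjusted p = 0.0135), and Mcm3, of the replicative helicase (0.69 ± 0.20, adjusted p = 0.0424). The blocked fit called 23 of the 27 higher, and the reduced set Rrm1 alone. Of 84 ribosomal protein genes, many with processed copies that may take reads, none was called, the median was 0.19, and 79 were higher in both within-run pairs. In the blocked fit 77 of the 84 were called higher. Of 78 respiratory chain and ATP synthase genes 1 was called in each direction, with a median of 0.22, while the blocked fit called 64 higher and 3 lower. Of 27 interferon-stimulated genes Rsad2 (viperin) was called higher (1.9 ± 0.55, adjusted p = 0.0405) and Stat2, a subunit of the factor that drives them, lower (-0.73 ± 0.15, adjusted p = 0.00711). Rsad2 was high in c-RelKO replicate 2, with 4.28 and 21.9 FPKM in c-RelKO and 4.3, 3.76, 0.663 and 0.803 FPKM in WT Treg, and was not called in the reduced set (adjusted p = 0.254). The blocked fit called 16 of the 27 higher and 1 lower.

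Against p65KO Treg, which lack the other main activating subunit and still carry Rel, 1626 genes were called (14.1%), 188 higher (1.63%) and 1438 lower (12.5%) in c-RelKO Treg. This contrast shares the c-RelKO libraries with the one against WT and holds no WT library. A fit on the libraries of these groups alone called 1 gene, with the spread estimated from them only. Without p65KO replicate 1 the count was 665, and without c-RelKO replicate 1 or 2 it was 455 or 419. Rel was at 24.6, 120.3 and 128 FPKM in p65KO Treg replicates 1 to 3, and Rela at 58, 69.3 and 79.8 FPKM. Rela transcripts thus remained in p65KO Treg, and c-RelKO Treg held more of them by 0.97 ± 0.24 (adjusted p = 0.0189). Relb was higher in c-RelKO than in p65KO Treg by 1.93 ± 0.37 (adjusted p = 0.00554).

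Of the 15 largest rises against WT, 8 were also called higher against p65KO Treg, and of the 15 largest falls 14 were called lower, Rel among them. These genes were chosen by their values in the same c-RelKO libraries, so the repeated calls are no independent evidence. The 7 rises that did not pass were Xcl1, Il13, Il4, Plac8, Anxa1, Ly6c2 and Ifitm3, with adjusted p between 0.063 (Il13) and 0.226 (Ly6c2), and the fall was Slc15a2 (adjusted p = 0.0707). Of those that passed, Il22 was at 0, 1.31 and 3.04 FPKM there, and c-RelKO Treg exceeded it by 4.41 ± 0.64 (adjusted p = 0.00107). Klrb1b was at 0, 0.0238 and 0.059 FPKM (3.42 ± 0.24, adjusted p = 1.25e-05), and Cxcr6 at 21.5, 9.25 and 16.5 FPKM (2.9 ± 0.63, adjusted p = 0.00985). Pde3b, at 2.61, 1.98 and 3.44 FPKM in p65KO Treg, differed from c-RelKO Treg by 3.36 ± 0.29 (adjusted p = 3.24e-05). Pde3b is a rise outside the 15. Among the falls, Ikzf2 was at 146, 111 and 156 FPKM (-1.43 ± 0.18, adjusted p = 0.000389) and Malat1 at 92.6, 240.2 and 178 FPKM (-2.01 ± 0.33, adjusted p = 0.00213). Bcl2l11 was at 17.8, 30.4 and 24 FPKM in p65KO Treg (1.41 ± 0.32, adjusted p = 0.0119). For Penk, which encodes the opioid precursor proenkephalin, p65KO Treg held 159.6, 184 and 355 FPKM and c-RelKO Treg 72.4 and 57.9 FPKM, a difference of -1.74 ± 0.39 (adjusted p = 0.0117). Its levels in WT Treg were 51, 88.8, 130.0 and 135 FPKM, between the 2 knockouts in replicates 2 to 4, and the difference of c-RelKO from WT did not pass the test (adjusted p = 0.381), but did in the blocked fit (-0.91, adjusted p = 0.0027).

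After stimulation only 1 c-RelKO library was measured. The effect of c-Rel loss at rest minus that after stimulation was called for 0 of the 11535 genes by limma (0%), and the unadjusted p was under 0.05 in 119. The blocked fit gave 31 calls. In the stimulated within-run pair, c-RelKO minus WT replicate 2, 160 of the 187 genes called higher at rest were higher too (median 0.38) and 1033 of the 1037 called lower were lower too (median -0.58). Over all tested genes, 4503 were higher and 6995 lower in that pair, with a median of -0.07. No library of this pair is among those of the resting comparison, but both are of the same run as resting c-RelKO replicate 2 and WT replicate 4. Labels do not say whether resting and stimulated libraries came from separate animals.

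Single genes showed which parts of the pattern recurred in the stimulated library. Il22 was at 22.1 FPKM in stimulated c-RelKO Treg and 0.469 and 0.912 FPKM in stimulated WT Treg. Il4 was at 56.3 FPKM against 6.87 and 5.48 FPKM, and Ifng at 97.8 FPKM against 12.5 and 7.72 FPKM. Cytokine genes were thus higher there as at rest, and Il17a, which did not pass the test at rest, was at 20.2 FPKM against 1.28 and 2.85 FPKM. Klrk1 was at 0.958 FPKM against 0.0897 and 0.251 FPKM, and Klrc1 at 1.19 FPKM against 0.124 and 0.536 FPKM. Plac8 was at 18.6 FPKM against 5.08 and 6.85 FPKM. Klrk1 and Klrc1 were thus above both stimulated WT libraries, but less abundant than in the resting c-RelKO libraries. Resting replicate 2, of the same run, held 4.6 FPKM of Klrk1 and 5.19 FPKM of Klrc1, and replicate 1 held 17 and 41.5 FPKM. As for all genes, the difference between the effects was not called. Malat1 was at 54.8 FPKM against 317 and 249 FPKM, Neat1 at 27.8 FPKM against 231 and 159 FPKM and Ikzf2 at 87.5 FPKM against 126 and 149.6 FPKM. For these 3 the stimulated c-RelKO library was below both stimulated WT libraries.

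**Figure D5:**
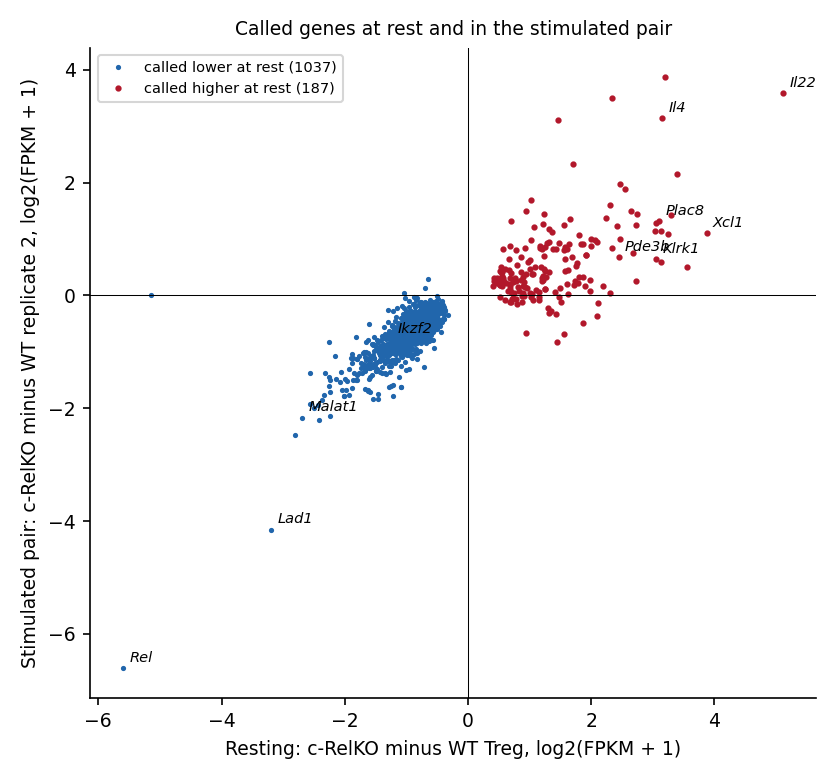
Difference between c-RelKO and WT Treg at rest (x axis) and between the stimulated c-RelKO library and stimulated WT replicate 2 (y axis), both in log2(FPKM + 1), for the genes called at rest. Of the genes called lower, 1033 of 1037 lie below the horizontal line, and of those called higher, 160 of 187 lie above it.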

How the data were processed

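Of 25 RNA-seq libraries, 21 were used. Reads were processed with bcl2fastq, TopHat and Cufflinks on mm9, per the submitters' processing notes, and the authors deposited FPKM per gene, 1 file a library. Of 23235 symbols, 247 that Cufflinks marked as low data or failed in any library were left out and 22988 kept. Depth was implied from Cufflinks' bounds on FPKM, since the files hold no counts. limma 3.58.1 (R 4.3.3, with a trend) was fitted to log2(FPKM + 1) over these libraries in 10 groups, of which all share 1 estimate of the spread, on the 11535 genes that reached 1 FPKM in 2 or more libraries. The fit was tested on simulated data. Alternatives were size factors, the run or replicate number as a block, another pseudocount or filter, and left-out libraries.

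The libraries, 32 gene lists and rules were chosen with earlier results of these data known. Of the listed symbols 669 were found. Genes named were Rel, Rela and Foxp3, the 15 largest rises and falls among called genes without overlap, the largest by the blocked fit and by both knockout contrasts, and the 6 list members with the smallest p (all members of short lists). Chosen after their values were seen were Cd40lg, Dusp4, Nr4a1, Xist, Ctla4, Il2ra, Cd3e, Cd4, Il17a, Gata3, Nfkbia, Cd83, Bcl2l1, Lrrc32, Ecm1, Il18r1, Prf1, Fasl, Iltifb, Tnfrsf4, Tnfrsf9, Tnfrsf18, Ezh2, Ogt, Clk1, Clk4, Luc7l3, Srrm2, Rbm39, Srsf11, Son and Gabpb1. Some results are not reported here.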

Additional observations from a re-analysis of the deposited data

Results flagged for a closer look

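In 5 of the 70 genes whose 4 WT Treg values were given, 1 WT library stood apart: its gap to the nearest other library, as a share of the whole range in log2(FPKM + 1), was above Dixon's 95% critical value for 4 libraries. Chance gives this in about 1 in 20 groups, and the genes are not independent. WT replicate 1 was the low library for Rel, with a share of 0.864, and for Dusp4, with 0.968, and the high one for the survival gene Bcl2l2, with 0.839. WT replicate 3 was the high library for Il13, with a share of 0.85, and WT replicate 4 the low one for Xist, with 0.840.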

How the results depend on the processing

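The count of genes called between c-RelKO and WT Treg (1224) differed between fits. It was 4804 with the run as a block, 4854 with size factors as well, 4736 when c-RelKO replicate 2 was also left out (chosen after seeing the data), 71 in a fit on the compared groups only and 472 without WT replicate 1 and c-RelKO replicate 2. Leaving out 1 library gave 450 to 1255. Against p65KO Treg (1626) these settings gave 4606, 3993, 3860, 1 and 996, size factors alone 940, and leaving out 1 library 419 to 2301. For the difference between rest and stimulation (0), the run block gave 16, with size factors 31 and without c-RelKO replicate 2 as well 637. No filter on low values gave 10, the set without WT replicate 1 and c-RelKO replicate 2 gave 2, and leaving out 1 library gave 0 to 7. The cause was not tested. All 187 genes called higher and 1037 called lower against WT kept their sign under every alternative in which they were tested.

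With the replicate number as a block the counts were 3271 against WT and 4218 against p65KO Treg. The numbers were not taken to pair the libraries, since same-numbered c-RelKO and WT libraries came from different runs. Their deviations correlated at 0.0636 (replicates 1) and -0.3293 (replicates 2). In the within-run pairs the values were 0.0357 for c-RelKO replicate 1 with WT replicate 3 and 0.3988 for c-RelKO replicate 2 with WT replicate 4. The correlation thus did not set the first within-run pair apart from the same-numbered one. The stimulated c-RelKO library carries no number, so for that contrast the run alone served as a block. With 2 c-RelKO libraries, and 1 in the reduced set, the precision of every difference is limited, and FPKM below 1 rest on few fragments.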

Other observations

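Some gene groups belonged to none of the comparisons above. Of 25 early response genes of T cell receptor signalling, none was called in c-RelKO against WT Treg, with a median difference of 0.60, while the blocked fit called 7 higher. Nr4a1, an orphan nuclear receptor that reports such signals, was at 1209 and 973 FPKM in c-RelKO replicates 1 and 2, and it was at 62, 613, 1266 and 837 FPKM in WT replicates 1 to 4, lowest in replicate 1. Both c-RelKO values lay inside the WT range. Of 37 proteasome subunit genes tested, 1 was called higher, with a median of 0.07, and 14 in the blocked fit. Cd40lg, the helper ligand CD40L that T cells show to B cells, was at 190.2 and 84.3 FPKM in c-RelKO and 26.9, 38.6, 71.9 and 33.3 FPKM in WT Treg, higher in both c-RelKO libraries (1.65 ± 0.45, adjusted p = 0.0329 by limma). Calr, a chaperone of the endoplasmic reticulum, rose by 0.97 ± 0.19 (adjusted p = 0.00617). Ifitm2, whose reads may be shared with Ifitm3, rose by 1.57 ± 0.18 (adjusted p = 0.000186).

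Among lists of other cell types, 1 of 5 tested plasma cell markers was called higher, Sdc1, which encodes the surface proteoglycan CD138. It was at 3.53 and 3.64 FPKM in c-RelKO and 0.949, 1.25, 0.704 and 0.643 FPKM in WT Treg (1.29 ± 0.19, adjusted p = 0.000988). All 5 were higher in both within-run pairs, beside 33.5% of all tested genes. The plasma cell list summed to 377 and 345 FPKM in c-RelKO and 95.1, 274, 280 and 288 FPKM in WT Treg. The part of plasma cells in this rise was not tested. Of 12 tested myeloid markers 1 was called higher, Fcer1g, the Fc receptor gamma chain, at 13 and 40.7 FPKM in c-RelKO and 13.3, 1.11, 0.824 and 2.08 FPKM in WT Treg (2.75 ± 0.79, adjusted p = 0.0397), highest in c-RelKO replicate 2. The 1 megakaryocyte marker that passed the filter on low values was not called.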
